A study of Mus musculus with 4 samples.

Results

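Fc receptors bind the constant part of antibodies. The 6 genes described here are 4 receptors for IgG (Fcgr1, Fcgr2b, Fcgr3 and Fcgr4), the signalling chain that several of them share (Fcer1g, which encodes the FcR gamma chain) and the receptor that recycles IgG inside cells (Fcgrt, which encodes the heavy chain of FcRn). They were chosen by name, as members of the family, and all 6 were found among the 11822 genes listed in both deposited tables. All 6 also had a mean of at least 1 RPKM (reads scaled by transcript length and library size), which 11757 genes reached and which was asked of every gene tested.

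RNA was sequenced from mature dendritic cells (maDC) of C57BL/6 mice aged 6 weeks, grown from bone marrow with 10 ng/ml GM-CSF and 1 ng/ml IL-4, selected on CD11c and matured for 24 h with 100 ng/ml LPS. The comparison asks how the transcriptome of maDC differs when Mettl3, the catalytic subunit of the enzyme that places N6-methyladenosine (m6A) on mRNA, is deleted. Both Mettl3KO mice were Mettl3 fl/fl CD11c-Cre and lose exons 2 to 4 of Mettl3 in cells with an active CD11c promoter, and both Mettl3WT mice were floxed littermates. The 4 libraries form 2 littermate pairs, here pair 1 and pair 2. The Cre transgene was carried by the Mettl3KO mice alone, so its own effect cannot be told apart from that of the deletion, and CD11c is itself the marker on which the cells were selected. In each pair the value of Mettl3WT is given first and that of Mettl3KO second.

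Activating Fc gamma receptors pass their signal through the FcR gamma chain, whose cytoplasmic tail holds an immunoreceptor tyrosine-based activation motif (ITAM) that recruits the kinase Syk after phosphorylation by Src family kinases. FcgRIIB, the product of Fcgr2b, is the inhibitory member and holds an ITIM, the inhibitory counterpart, which recruits the phosphatase SHIP-1. In dendritic cells these receptors take up antibody-bound antigen for presentation, and the balance between activating receptors and FcgRIIB shapes the response to immune complexes.

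The signalling parts of the family are shown first because the members differ in sign of signal. The stretch of the Fcer1g coding sequence for the ITAM (residues 65 to 79 of 86) and that of Fcgr2b for the ITIM (residues 270 to 275 of 293) are given with the codons of the tyrosines in capitals, from GENCODE M21 transcripts on GRCm38, the build that mm10 names. Both genes lie on the minus strand of chromosome 1, and the bases are written in the sense of the mRNA.
Fcer1g ITAM codons: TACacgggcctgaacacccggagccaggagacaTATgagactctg
Fcgr2b ITIM codons: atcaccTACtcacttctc

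Fcgr2b and Fcgr3 are near copies over the part that codes for their outer domains, which bears on how far their values can be separated. Of 509 aligned coding bases 491 were identical (96.5%), and the longest run without a difference was 129 bases, given below from the mRNA sense. Of the windows of 50 bases, 166 of 1413 in the Fcgr2b transcript (11.7%) and 166 of 1298 in the Fcgr3 transcript (12.8%) occur in both genes, while Fcgr1, Fcgr4, Fcer1g and Fcgrt shared 0 windows with another gene. How the authors treated reads with several matches is not given in the sources used here, so the split of reads between Fcgr2b and Fcgr3 is uncertain over those windows.
Run shared by Fcgr2b and Fcgr3: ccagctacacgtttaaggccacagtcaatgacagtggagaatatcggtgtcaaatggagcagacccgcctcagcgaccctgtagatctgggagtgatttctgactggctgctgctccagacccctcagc

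In series-wide terms the libraries held 31240000 to 35580000 reads, as inferred from the steps between low RPKM values. The targeted gene had 5.31 and 4.59 RPKM in pair 1, against 5.10 and 4.39 RPKM in pair 2. Since a value over the whole gene does not resolve the deleted exons, this check of the labels is limited. In pair 1 the sex-linked transcripts differed as well (Xist 0.0502 and 37.8 RPKM, Ddx3y 29.1 and 0.0243 RPKM), so sex and genotype cannot be told apart there. Neither gene is listed for pair 2, where a gene had to be above 1 RPKM in both libraries to be listed. Thus neither Xist nor Ddx3y passed that level in both mice of pair 2. At levels like those of pair 1, mice of the same sex would both pass that level for Xist or for Ddx3y. A difference in sex within pair 2 is therefore likely, with its direction unknown, and sex and genotype cannot be told apart there either. The part of sex was not tested. Of the dendritic cell markers all 9 were listed in all 4 libraries, among them Itgax, which encodes CD11c, at 9.66 to 51.0 RPKM and Cd74 at 1845 to 4612 RPKM. Markers of B, NK and T cells were listed in the first table alone, with summed levels of at most 7.27 RPKM a library for any of the 3 lists. Granulocyte transcripts set 1 library apart. The 5 granulocyte markers tested summed to 2218 and 4745 RPKM in pair 1 and to 3123 and 235 RPKM in pair 2, so Mettl3KO replicate 2 had the lowest level and Mettl3KO replicate 1 the highest. In bulk RNA, fewer cells of a type and less RNA per cell cannot be told apart.

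**Figure D1:**
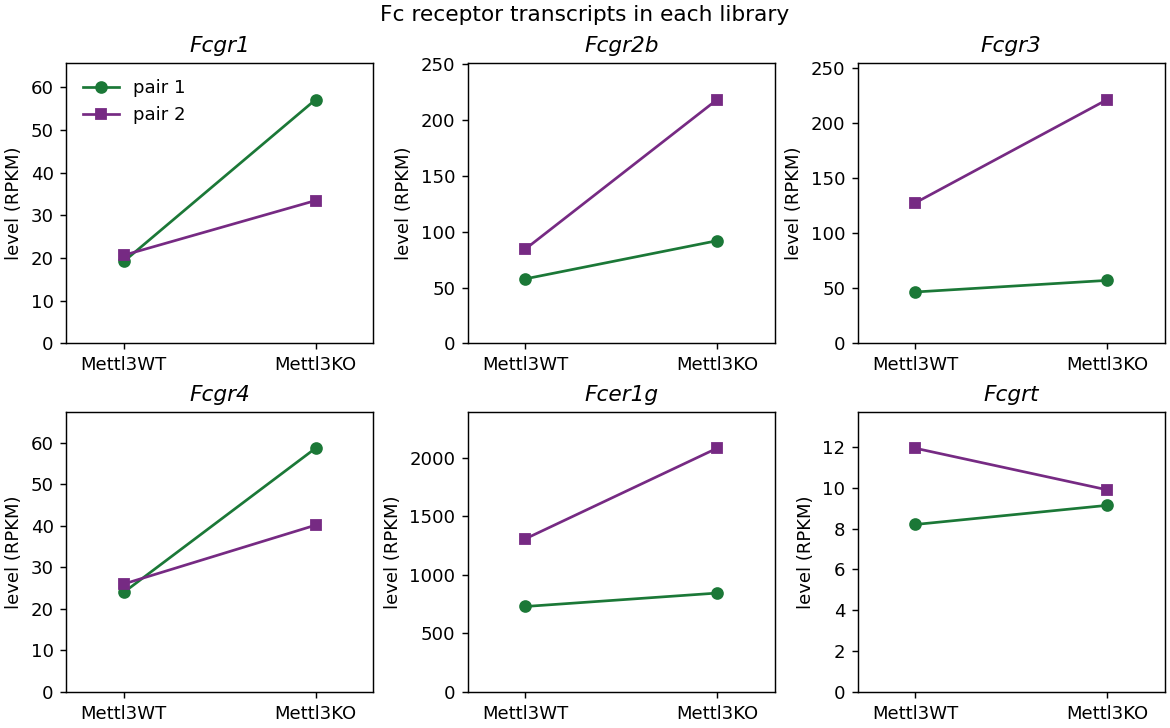
Level of each Fc receptor transcript (RPKM, linear axis from 0) in the 4 libraries, with lines that join the littermates of a pair (circles pair 1, squares pair 2). Fcgr1, Fcgr2b and Fcgr4 had both Mettl3KO libraries above both Mettl3WT libraries, Fcgr3 and Fcer1g were higher in Mettl3KO within each pair with overlapping groups, and Fcgrt went opposite ways.

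Fcgr1, the high-affinity receptor for IgG (also CD64; chr3:96282909-96293969, minus strand in mm10), had 19.2 and 57.1 RPKM in pair 1, against 20.7 and 33.5 RPKM in pair 2. Both Mettl3KO libraries lay above both Mettl3WT libraries, which were close to each other (19.9 ± 1.04 RPKM, SD, n = 2), while the Mettl3KO libraries were spread more widely (45.3 ± 16.7 RPKM, SD, n = 2). The level in Mettl3KO was 2.98 times that in Mettl3WT in pair 1 and 1.62 times in pair 2. The log2 change over both pairs was 1.10 (SE 0.26) on the log2(RPKM + 1) scale, higher in 2 of 2 pairs, with an unadjusted p of 0.00185 and an adjusted p of 0.264 in limma, so Fcgr1 did not pass the threshold of 0.05 over all genes tested. About 1768 and 5015 reads stood behind the values of pair 1 and 1745 and 2708 behind those of pair 2, which gives 95% counting intervals of 2.82 to 3.14 and of 1.53 to 1.72 for the ratios. These intervals cover counting error alone, are too narrow if both mates of a fragment were counted, and say nothing of the spread between mice. Without Mettl3KO replicate 2 the log2 change of Fcgr1 was 1.48, and without Mettl3KO replicate 1 it was 0.72.

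Fcgr4, a receptor for IgG2a and IgG2b found on myeloid cells of the mouse (chr1:171018926-171029761, plus strand), followed Fcgr1 most closely. It had 24.0 and 58.6 RPKM in pair 1, against 26.0 and 40.1 RPKM in pair 2. Again the Mettl3WT libraries were nearly level (25.0 ± 1.42 RPKM, SD, n = 2), both Mettl3KO libraries were above them, and the larger difference was in pair 1. The ratios were 2.45 (95% counting interval 2.28 to 2.63) and 1.54 (1.43 to 1.67), the log2 change was 0.93 (SE 0.24), higher in 2 of 2 pairs, and the unadjusted and adjusted p in limma were 0.00355 and 0.345. Without a library the log2 change ran from 0.66 (without Mettl3KO replicate 1) to 1.20 (without Mettl3KO replicate 2).

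Fcgr3, the low-affinity activating receptor (also CD16; chr1:171051169-171065936, minus strand), had 46.6 and 57.1 RPKM in pair 1, against 127 and 221 RPKM in pair 2. It differed more between pairs than between genotypes: the Mettl3WT library of pair 2 was above the Mettl3KO library of pair 1, so the groups overlapped. Mettl3KO was at 1.22 times Mettl3WT in pair 1 and at 1.73 times in pair 2. The log2 change was 0.54 (SE 0.24), higher in 2 of 2 pairs, with an unadjusted p of 0.0493 and an adjusted p of 0.895 in limma. Without Mettl3WT replicate 1 or without Mettl3KO replicate 2 the sign of the log2 change turned (-0.18 and -0.43), in fits that then compare libraries across pairs.

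Fcgr2b, the inhibitory receptor (also CD32B; chr1:170960558-170976071, minus strand), had 57.8 and 91.9 RPKM in pair 1, against 84.4 and 218 RPKM in pair 2. Both Mettl3KO libraries were above both Mettl3WT libraries, with a narrow gap between the Mettl3KO library of pair 1 and the Mettl3WT library of pair 2. Here the larger difference was in pair 2, at 2.59 times against 1.59 times in pair 1. The log2 change of 1.01 (SE 0.25), higher in 2 of 2 pairs, had an unadjusted p of 0.00268 and an adjusted p of 0.298 in limma. Without Mettl3KO replicate 2, the library with few granulocyte transcripts, it was 0.39, and without Mettl3KO replicate 1 it was 1.63.

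Fcer1g, the shared signalling chain (chr1:171229572-171234349, minus strand), was the most abundant member in every library. It had 729 and 844 RPKM in pair 1, against 1306 and 2079 RPKM in pair 2, so that both libraries of pair 2 were above both of pair 1 and the groups overlapped. Mettl3KO was at 1.16 times Mettl3WT in pair 1 and at 1.59 times in pair 2. The log2 change of 0.44 (SE 0.25), higher in 2 of 2 pairs, did not pass either way (unadjusted p = 0.115 and adjusted p = 0.994 in limma), and it was -0.21 without Mettl3KO replicate 2. The longest Fcer1g transcript has 683 bases, and short transcripts as a class were higher in Mettl3KO in pair 2. Among the 532 coding genes with a longest transcript under 1000 bases, 77.4% were higher in Mettl3KO in pair 2 and 63.3% in pair 1, with median log2 ratios of 0.23 and 0.08. The medians of the 80 ribosomal protein genes were 0.05 (pair 1) and 0.46 (pair 2), while mt-Rnr1, a mitochondrial rRNA, stood at 1219 and 1160 RPKM, then 1853 and 4949 RPKM. The log2 ratio of Fcer1g was 0.21 in pair 1 and 0.67 in pair 2, and the part of transcript length in these values was not tested.

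Fcgrt, which encodes the FcRn heavy chain (chr7:45092992-45103846, minus strand), was the least abundant member in every library. It had 8.20 and 9.14 RPKM in pair 1, against 11.9 and 9.90 RPKM in pair 2. The Mettl3KO level was higher in pair 1 and lower in pair 2, and the log2 change was -0.05 (SE 0.22), with an unadjusted p of 0.815 and an adjusted p of 0.996 in limma. In pair 1 the counting interval of the ratio held 1 (0.988 to 1.26, from about 516 and 548 reads), while in pair 2 it ran from 0.741 to 0.928. B2m, the beta-2-microglobulin light chain with which FcRn pairs, had 5179 and 4962 RPKM in pair 1, against 5672 and 9207 RPKM in pair 2, which also went opposite ways, but in the other order. Its longest transcript has 860 bases and so belongs to the short class described above.

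Over the 6 members, 0 passed an adjusted p of 0.05 in limma, and 5 of the 11757 genes tested did (0.0425%). At an unadjusted p under 0.05, 4 members were higher in Mettl3KO (Fcgr1, Fcgr2b, Fcgr3 and Fcgr4) and 0 were lower, where 2.94% of all genes tested were higher. This count depended on the fit. It was 2 without the replicate block (Fcgr1 and Fcgr4), 0 without Mettl3WT replicate 1 or Mettl3WT replicate 2, and 2 without Mettl3KO replicate 1 (Fcgr2b and Fcgr3) or Mettl3KO replicate 2 (Fcgr1 and Fcgr4), in recounts added after the data were seen. Fcgr3, at 0.0493, had 0.0539 with a pseudocount of 0.1. By a rule that is not a test, (RPKM + 1) differing at least 1.5-fold the same way in each pair, 3 members were higher (Fcgr1, Fcgr2b and Fcgr4), against 0.731% of all genes. The same 3 had both Mettl3KO libraries above both Mettl3WT libraries, which held for 4.7% of all genes. In all, 5 of 6 members were higher in Mettl3KO in both pairs, as were 19.1% of the genes tested, and Fcgrt was the exception. The median log2 ratio of the members was 0.47 in pair 1 and 0.67 in pair 2, where the median of all genes was -0.02 and -0.08. With 2 pairs an exact permutation test of a single gene cannot go below p = 0.5 (two-sided, signs of the pairs) or 0.333 (two-sided, libraries taken as unpaired), so no member was tested that way.

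**Figure D2:**
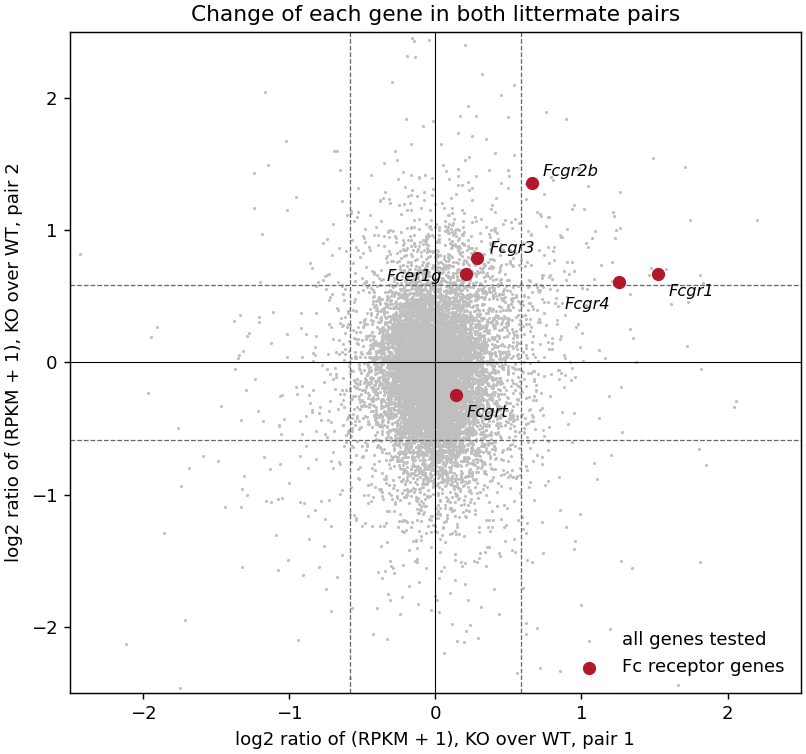
Log2 ratio of (RPKM + 1), Mettl3KO over Mettl3WT, in pair 1 (horizontal) and pair 2 (vertical) for the 11757 genes tested (grey) and the 6 Fc receptor genes (red), with dashed lines at 1.5-fold and 24 genes beyond the axes at 2.5. Fcgr1, Fcgr4 and Fcgr2b lie past 1.5-fold higher in both pairs, Fcgr3 and Fcer1g past it in pair 2 alone, and Fcgrt near the centre.

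The members did not rank alike in the 2 pairs. In pair 1 the log2 ratio of Fcgr1 (1.53) and of Fcgr4 (1.26) stood at percentiles 99.8 and 99.7 of all genes tested, that of Fcgr2b (0.66) at 98.1, and those of Fcgr3 (0.29) and Fcer1g (0.21) at 89.5 and 84.0. In pair 2 Fcgr2b came first (1.36, percentile 99.4), followed by Fcgr3 (0.79, 96.6), and Fcgr1, Fcer1g and Fcgr4 (0.67, 0.67 and 0.61) stood between 94.0 and 95.1. Pair 2 had more genes with large ratios, so equal ratios stand at lower percentiles there. By the distance between log2(RPKM + 1) values centred on each gene's mean over the 4 libraries, Fcgr1 and Fcgr4 were the closest of the 15 pairs of members (0.23), followed by Fcgr2b with Fcer1g (0.61) and Fcgr3 with Fcer1g (0.62), and Fcgr1 and Fcgr3 were the farthest apart (2.19). These distances rest on 4 libraries and are a description without a test.

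The order of the levels was in part shared between libraries. RPKM values are scaled by transcript length, but the annotation behind that length is not known here, so levels of different genes compare only roughly. Ranks of Fcgr2b against Fcgr3 also carry the uncertainty in read assignment given above. Fcer1g was first and Fcgrt last in all 4 libraries. In the Mettl3WT library of pair 1 the order between them was Fcgr2b, Fcgr3, Fcgr4 and Fcgr1. In pair 2 Fcgr3 was above Fcgr2b in both libraries, although the Mettl3KO values of 221 and 218 RPKM were nearly equal. In the Mettl3KO library of pair 1 Fcgr4, Fcgr1 and Fcgr3 were close together (58.6, 57.1 and 57.1 RPKM). Fcgr4 was above Fcgr1 in all 4 libraries, although in Mettl3KO their means differed by less than the spread of either (45.3 ± 16.7 RPKM for Fcgr1 and 49.4 ± 13.1 RPKM for Fcgr4, SD, n = 2). Fcgr2b and Fcgr3 changed places between the pairs in both groups.

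The balance between activating and inhibitory receptors also differed by pair. The summed RPKM of Fcgr1, Fcgr3 and Fcgr4 was 1.55 times that of Fcgr2b in Mettl3WT and 1.88 times in Mettl3KO in pair 1, and 2.06 and 1.35 times in pair 2. The ratio was thus higher in Mettl3KO in pair 1 (1.21 times that of Mettl3WT) and lower in pair 2 (0.655 times). Without Fcgr1 the ratio in pair 1 was nearly the same in both genotypes (1.03 times), and it was 0.658 times in pair 2. In pair 1 both Fcgr1 alone (1.87 times) and Fcgr4 alone (1.54 times) were higher relative to Fcgr2b, while Fcgr3 alone was lower (0.770 times). The single receptors split the same way for Fcgr1 and Fcgr4 but not for Fcgr3. Relative to Fcgr2b, Fcgr1 went from 0.332 to 0.622 in pair 1 and from 0.245 to 0.153 in pair 2, and Fcgr4 from 0.415 to 0.638 and from 0.308 to 0.184. Fcgr3 was lower relative to Fcgr2b in both pairs, with 0.806 and 0.621 in pair 1 and 1.51 and 1.01 in pair 2. Because Fcgr2b and Fcgr3 share identical stretches, their ratio carries the uncertainty in read assignment given above. These are ratios of transcript levels and not of receptors at the cell surface.

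**Figure D3:**
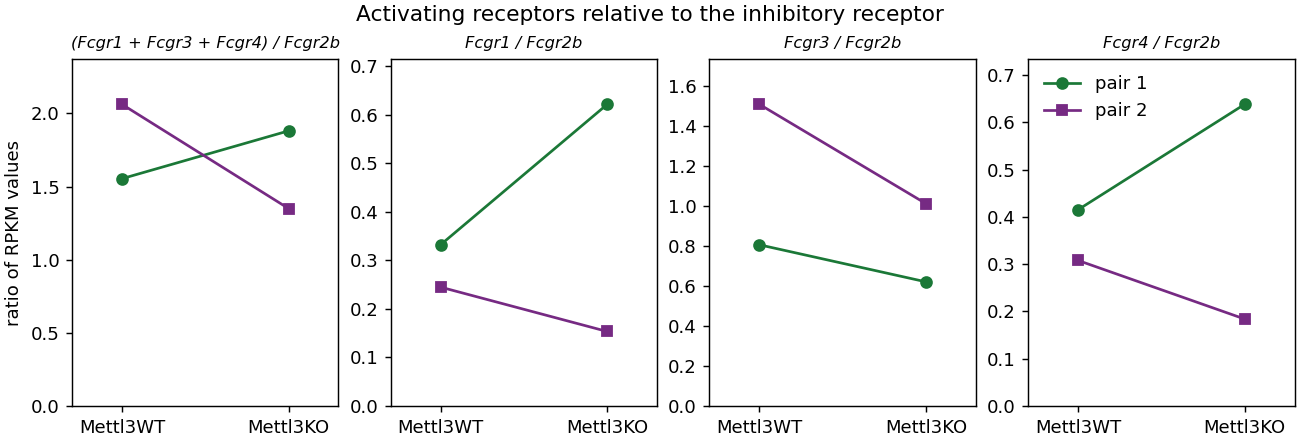
Ratio of RPKM values in each library (axes from 0): the 3 activating receptors summed over Fcgr2b, and Fcgr1, Fcgr3 and Fcgr4 each over Fcgr2b, with lines joining littermates (circles pair 1, squares pair 2). The lines of the sum, of Fcgr1 and of Fcgr4 cross or diverge between pairs, and those of Fcgr3 run downward in both.

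Of the 6 genes, 4 lie on distal chromosome 1 within 274 kb, in the order Fcgr2b, Fcgr4, Fcgr3 and Fcer1g, with other genes among them. Sdhc, a subunit of succinate dehydrogenase that lies between Fcgr3 and Fcer1g, had 49.6 and 50.3 RPKM in pair 1, against 69.9 and 69.3 RPKM in pair 2. Tomm40l had 6.12 and 6.13, then 7.94 and 6.82 RPKM, and Nr1i3, a nuclear receptor, had 1.10 and 1.82, then 2.47 and 2.12 RPKM. Their log2 changes ran from -0.10 for Tomm40l to 0.14 for Nr1i3 (limma adjusted p from 0.994 to 1.0), where the members on this chromosome ran from 0.44 to 1.01. In pair 1 alone the log2 ratio of Nr1i3 (0.43) was above those of Fcgr3 (0.29) and Fcer1g (0.21). The neighbours Fcrla, Gm39701, Cfap126, LOC108167746, Apoa2 and Adamts4 were listed in the first table alone, at no more than 2.31 RPKM. Near Fcgr1 on chromosome 3, the one neighbour listed in both tables, Gm15441, had 8.20 and 7.09, then 4.49 and 7.83 RPKM. Around Fcgrt on chromosome 7, Nosip had 23.0 and 24.1, then 32.8 and 30.2 RPKM and Rcn3 was in the first table alone.

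**Figure D4:**
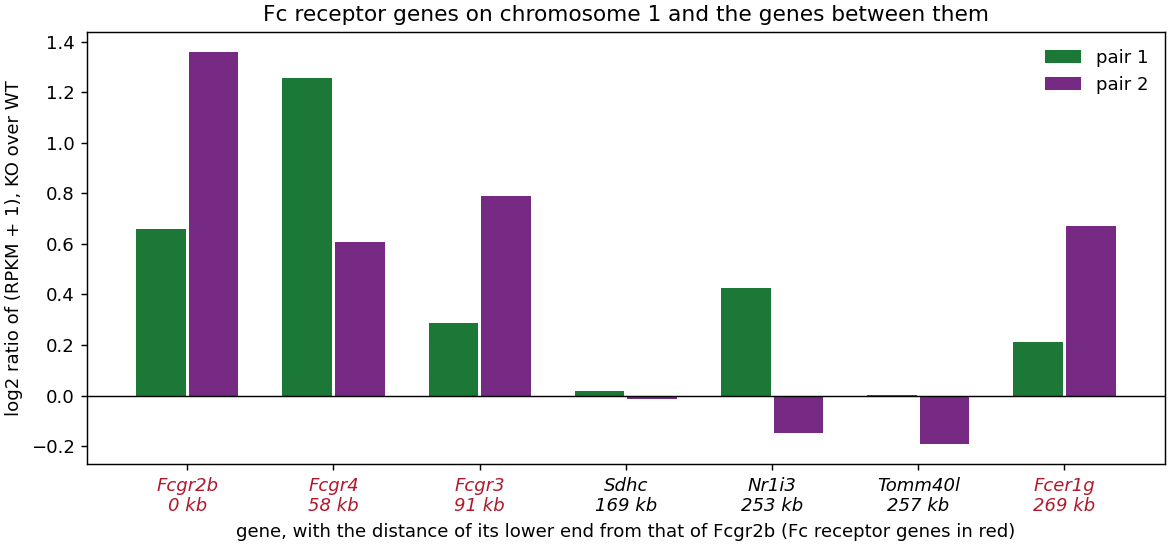
Log2 ratio of (RPKM + 1), Mettl3KO over Mettl3WT, in pair 1 (green) and pair 2 (purple) for the Fc receptor genes of chromosome 1 (red names) and the genes between them that were listed in both tables, with each gene's distance from Fcgr2b in kb. All 8 bars of the Fc receptor genes are above 0, from 0.21 to 1.36, while Sdhc and Tomm40l stay within 0.2 of 0 and Nr1i3, a low gene, goes from 0.43 in pair 1 to -0.15 in pair 2.

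The 150 bases before the RefSeq start (GRCm38.p6) are shown for the 4 IgG receptors. Windows of 300 bases (reaching 50 bases past the start) were searched on both strands for 3 motifs known from Fc receptor promoters. These were GAGGAA, a core bound by PU.1, TTCNNNGAA, the gamma-activated site (GAS), and GAAA followed after 2 bases by another GAAA, a core of the interferon-stimulated response element (ISRE). Matches within the bases shown are in capitals, where TTCCTC is GAGGAA on the other strand.
Fcgr1, chr3:96293970-96294119, minus strand: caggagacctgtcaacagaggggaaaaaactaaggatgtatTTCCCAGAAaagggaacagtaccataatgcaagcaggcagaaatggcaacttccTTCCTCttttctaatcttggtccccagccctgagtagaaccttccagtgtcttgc
Fcgr4, chr1:171018776-171018925, plus strand: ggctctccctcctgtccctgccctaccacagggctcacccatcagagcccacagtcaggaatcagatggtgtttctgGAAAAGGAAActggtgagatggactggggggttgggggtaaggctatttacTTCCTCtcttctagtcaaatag
Fcgr3, chr1:171059404-171059553, minus strand: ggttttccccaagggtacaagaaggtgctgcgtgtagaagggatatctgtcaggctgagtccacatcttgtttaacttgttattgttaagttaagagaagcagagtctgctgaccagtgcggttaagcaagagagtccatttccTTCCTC
Fcgr2b, chr1:170976072-170976221, minus strand: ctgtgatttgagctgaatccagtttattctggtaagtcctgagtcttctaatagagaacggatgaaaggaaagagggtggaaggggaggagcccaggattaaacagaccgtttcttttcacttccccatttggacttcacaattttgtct

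The PU.1 core was found in Fcgr1 (55 bases before the start, at -55), in Fcgr4 (-22) and in Fcgr3 (-6, or -15 from another RefSeq start), and it occurs in 28.3% of 32851 promoter windows. Fcgr1 held a GAS at -109, as do 8.3% of windows, and Fcgr4 held an ISRE core at -73, as do 3.44%. In the windows of Fcgr2b, Fcer1g and Fcgrt these letters were not found. The span of Fcgr3 in the deposited tables begins upstream of the RefSeq start, so its window lies inside that span. The GAS and ISRE matches did not overlap a PU.1 core. A match is a description of the letters and not a measured binding site, and a link between these matches and the levels was not tested. Spi1, the gene of PU.1, had 110 and 134 RPKM in pair 1, against 183 and 176 RPKM in pair 2. Spi1 was higher in Mettl3KO in pair 1 and slightly lower in pair 2, while Fcgr1 and Fcgr4 were higher in both and more so in pair 1.

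GGACU is among the most common sequence contexts of m6A, so the letters GGACT were counted in the longest transcript of each member. There were 2.39 per kb in Fcgr4, 1.69 in Fcgr2b, 1.13 in Fcgrt, 0.74 in Fcgr3, 0.39 in Fcgr1 and 0 in Fcer1g, against a median of 1.05 over 9720 tested coding genes. These rates rest on few matches, such as 3 in Fcgr4 and 1 in Fcgr1. For Fcgr2b there were 6 in its longest transcript of 3544 bases, while the shared windows above used one of 1462 bases. A link between these letters and the levels was not tested. Methylation itself is not analysed here.

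The lists of genes around the receptors are given by counts. Of all 11757 genes tested, 2250 were higher and 3617 lower in Mettl3KO in both pairs. At an unadjusted p under 0.05 in limma, 346 were higher and 308 lower. Among 25 tested genes of ITAM signalling, 4 were higher and 6 lower in Mettl3KO in both pairs and 15 went opposite ways, with medians of 0.08 (pair 1) and -0.38 (pair 2), and limma called 0 of them (1 at an unadjusted p under 0.05). Syk, the kinase that binds the phosphorylated ITAM, had 124 and 121 RPKM in pair 1, against 74.4 and 44.8 RPKM in pair 2, and Lyn, a Src family kinase, had 40.5 and 43.2, then 35.7 and 34.9 RPKM. The 2 genes of this list with the largest log2 changes were Vav3 and Tyrobp. Vav3, a guanine nucleotide exchange factor, was lower in both pairs (11.97 and 8.27, then 10.4 and 3.90 RPKM, log2 change -0.85, SE 0.24, unadjusted p = 0.00605 and adjusted p = 0.456 in limma). Tyrobp, which encodes DAP12, the other ITAM adaptor of myeloid cells, was higher in both (233 and 322, then 764 and 1007 RPKM, log2 change 0.43, SE 0.24, adjusted p = 0.991 in limma). Tyrobp resembled Fcer1g in its levels, with both libraries of pair 2 above those of pair 1, and its longest transcript of 597 bases is also short.

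Of 8 genes of inhibitory signalling, 1 was higher and 1 lower in both pairs and 6 went opposite ways, with medians of 0.08 and -0.38, and limma called 0 (0 at an unadjusted p under 0.05). Inpp5d, which encodes SHIP-1, the phosphatase that FcgRIIB recruits, had 37.0 and 39.4 RPKM in pair 1, against 33.9 and 22.9 RPKM in pair 2. Ptpn6, which encodes SHP-1, had 84.3 and 87.3, then 80.4 and 65.2 RPKM, and Cblb, a ubiquitin ligase with the largest log2 change of the list (-0.26), had 35.2 and 33.9, then 18.5 and 13.1 RPKM. Fcgr2b was higher in both pairs, and none of these 3 genes was. The 1 gene of the list that was higher in both was Dok2, with 11.2 and 13.2, then 16.9 and 19.3 RPKM.

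Of 15 other receptors that signal through the FcR gamma chain, 9 were tested, and 3 were higher in both pairs, 0 were lower in both and 6 went opposite ways (medians 0.16 and 0.09). Limma called 0 of them, with 1 at an unadjusted p under 0.05. Clec4e, the receptor Mincle, had 102 and 72.9 RPKM in pair 1, against 45.7 and 87.1 RPKM in pair 2, in opposite directions. Clec4b1, a C-type lectin, had 0.331 and 0.486, then 1.77 and 6.37 RPKM (log2 change 0.79, SE 0.27, unadjusted p = 0.0174 and adjusted p = 0.687 in limma), and its levels in pair 1 were low. Lilra6, of a multigene family whose reads can match several members, had 1.90 and 2.35, then 13.996 and 2.67 RPKM (log2 change -0.91, adjusted p = 0.906 in limma). Of 13 other immunoglobulin receptors, 11 were in the first table and 2 were tested, and limma called 0 (0 at an unadjusted p under 0.05). Trim21, a cytosolic Fc receptor, had 13.7 and 17.1, then 3.97 and 6.93 RPKM, and Fcer2a, which encodes the IgE receptor CD23, had 1.81 and 2.04, then 2.83 and 2.78 RPKM. Fcer1a, the IgE-binding chain of the high-affinity IgE receptor, was in the first table alone at 0.763 and 0.229 RPKM.

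Of 12 tested regulators of Fc receptor levels, among them receptors for interferon gamma, IL-4, IL-10 and TGF-beta, 0 were higher and 1 was lower in both pairs and 11 went opposite ways, with medians of 0.10 (pair 1) and -0.33 (pair 2). Limma called 0 (0 at an unadjusted p under 0.05). Tgfb1 had the largest log2 change (-0.42, SE 0.25, adjusted p = 0.994 in limma), with 63.5 and 60.5 RPKM in pair 1, against 91.9 and 53.6 RPKM in pair 2. In pair 2 the medians of the regulators and of both signalling lists were thus below 0, where 5 of the 6 Fc receptor genes were higher in Mettl3KO.

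**Figure D5:**
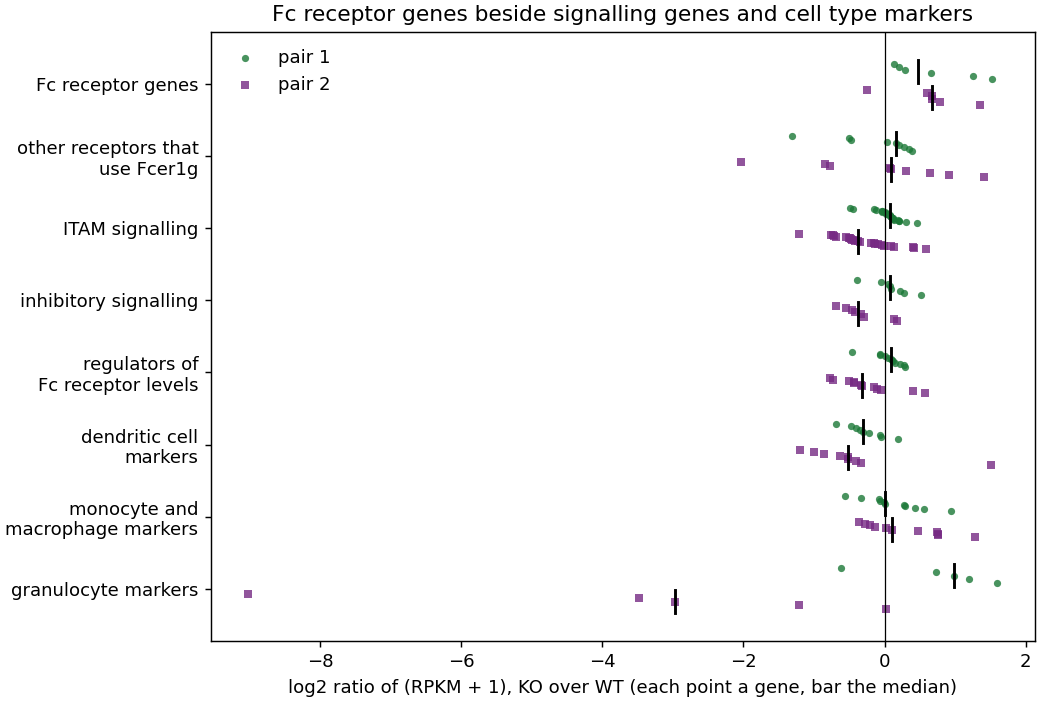
Log2 ratio of (RPKM + 1), Mettl3KO over Mettl3WT, for each tested gene of 8 lists (circles pair 1, squares pair 2, bars the medians). The Fc receptor genes have medians of 0.47 and 0.67, the signalling and regulator lists lie near 0 in pair 1 and below it in pair 2, except for the other receptors that use Fcer1g, and the granulocyte markers go from 0.99 in pair 1 to -2.98 in pair 2.

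Fc receptors are carried by many myeloid cells, so markers of other cells were set beside them. The 9 dendritic cell markers had medians of -0.30 and -0.52, and 7 were lower and 0 higher in both pairs (limma called 0, with 3 at an unadjusted p under 0.05, all lower). The other 2 went opposite ways. Itgax, the gene of CD11c, had 12.6 and 9.66 RPKM in pair 1, against 17.2 and 51.0 RPKM in pair 2. Flt3 had 13.6 and 15.7, then 7.24 and 4.74 RPKM. Over all 11757 genes tested, 3617 were lower in both pairs and 308 were lower at an unadjusted p under 0.05 in limma. Of 14 markers of monocytes and macrophages 11 were tested, and 3 were higher and 1 lower in both pairs (medians 0.00 and 0.11, with 0 called by limma and 1 at an unadjusted p under 0.05). Their summed level was 985 and 888 RPKM in pair 1, against 2237 and 3516 RPKM in pair 2, so it was lower in Mettl3KO in pair 1 and higher in pair 2. Such a sum is weighted by its most abundant genes. In pair 1 Cd14 (353 and 239 RPKM) and Adgre1 (219 and 173 RPKM) were lower in Mettl3KO, while Ccr2 and Ly6c2 were higher in both pairs. Ccr2, the chemokine receptor of inflammatory monocytes, was the only other listed gene past 1.5-fold in both pairs, with 1.57 and 3.93, then 5.45 and 9.90 RPKM (log2 change 0.85, SE 0.21, unadjusted p = 0.00236 and adjusted p = 0.286 in limma). Ly6c2, a marker of inflammatory monocytes, had 241 and 292, then 1134 and 1910 RPKM. Cd163 was in neither table, and Mrc1 and F13a1 were in the first alone at under 1 RPKM.

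Of 13 granulocyte markers, 12 were in the first table, with a median of 1.25 in pair 1, and 5 were tested. The 5 tested went opposite ways in the pairs (medians 0.99 and -2.98, with 0 called by limma and 1 at an unadjusted p under 0.05). Among them S100a9 had 1237 and 2843 RPKM in pair 1, against 1844 and 2.57 RPKM in pair 2. Fcgr1, Fcgr2b, Fcgr3, Fcgr4 and Fcer1g were higher in Mettl3KO in both pairs, where 4 of the 5 granulocyte markers stood higher in Mettl3KO in pair 1 but lower in pair 2, and Mmp8 went the other way (54.1 and 34.7, then 80.1 and 81.1 RPKM). Of 10 markers of mast cells and basophils, 9 were in the first table and 2 were tested, with medians of -0.16 and -1.90 and a summed level of 23.7 and 18.7, then 28.0 and 5.70 RPKM (limma called 0, with 2 at an unadjusted p under 0.05, both lower). Kit had 19.8 and 14.5, then 20.7 and 4.23 RPKM. The part of these cells in the levels of the Fc receptor genes was not tested.

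The genes with the profiles most like each member over the 4 libraries were found among 10021 tested protein-coding genes that are not members. For Fcgr1 they were Fam26f (distance 0.39, 3.58 and 8.20, then 3.63 and 5.83 RPKM) and Ms4a4c (distance 0.45, 24.9 and 59.3, then 17.3 and 39.4 RPKM). Fam26f was also the closest to Fcgr4 (0.18), followed by Palm (0.32, 4.51 and 8.58, then 4.00 and 6.74 RPKM). For Fcgr2b they were Slamf9 (0.24, 14.8 and 26.7, then 19.6 and 52.8 RPKM), a receptor of the SLAM family, and Ndufa3 (0.31, 76.9 and 91.6, then 107 and 268 RPKM). Cd200r4 (0.07) and Gm36712 (0.09) were closest to Fcgr3, and Rpl37a, a ribosomal protein gene (0.05), and Wdr38 (0.05) to Fcer1g. Atg9a (0.02) and Frat2 (0.03) were closest to Fcgrt. With 4 libraries many genes come close to any profile, so nearness is a description. The nearest genes of Fcgr1 and Fcgr2b were farther away than those of Fcgr3, Fcer1g and Fcgrt.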

How the data were processed

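Polyadenylated RNA of 4 libraries was sequenced. The submitters' processing notes name bcl2fastq, TopHat2 2.0.14, Cuffnorm and mm10. The sources used here do not give the annotation, the strand or how reads with several matches were handled. For each pair the authors deposited a table of RPKM values, 1 per gene and library. Their log2 fold change, p-value and q-value columns were not used. The second table lists only genes above 1 RPKM in both libraries. Of the symbols that had turned into dates (22 and 16 genes), 7 and 5 were restored by position. The others kept the date as a name, 11 of them among the genes tested, and were joined by position as well. Positions are those in the tables.

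Values were analysed as log2(RPKM + 1), which understates the change of low genes, for genes whose mean reached 1 RPKM. The test was limma 3.58.1 (R 4.3.3) with an intensity trend, the pair as a block and Benjamini-Hochberg adjustment over 11757 genes (threshold 0.05). It was also run on simulated data with known changes and the same noise for every gene. That run checks the code and not how the test performs on these libraries. The study's methods name littermate pairs, each table holds 1 pair, and the libraries of a pair deviated together from the group means (r = 0.697). Pair and table are the same factor here. Anything else that the libraries of a table share could give such an r, so it cannot tell littermates from that. Leaving out a library leaves genotype alone in the fit. Library sizes were found by scanning for sizes at which low values are whole reads. At those sizes 97.6% to 100% of low values came within 0.1 reads of a whole number, where 20% would by chance. Read numbers use 1 transcript length a gene and are given where no shared windows or large differences in length occur. Figures were drawn with matplotlib 3.10.9.

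Genes named are the 6 members, chosen partners (Syk, Lyn, Tyrobp, Inpp5d, Ptpn6, B2m, Spi1, Mettl3 and Clec4e), list members that limma called or that passed 1.5-fold in both pairs, the 2 with the largest log2 change in each signalling or regulator list, the 2 nearest profiles of each member, and neighbours on the chromosome. Some genes that this rule names are not reported here. Cell type markers and some list genes beyond this rule were named after their values were seen. The members and lists were chosen with earlier results of these data known. The measures by transcript length, of ribosomal protein genes and of mt-Rnr1 were added after the data were seen.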

Additional observations from a re-analysis of the deposited data

How the results depend on the processing

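Over 11 alternatives for each of the 6 members, 62 of 66 log2 changes kept their direction and stayed on the same side of the threshold. The other 4 reversed, all with a library left out. Several alternatives leave each log2 change as it is by construction, so its direction was fixed in advance. They were the fits without the block, without the filter on low values, with a mean of at least 5 RPKM, without the intensity trend and among protein-coding genes alone. Leaving out a library gave 0.72 to 1.48 for Fcgr1, 0.39 to 1.63 for Fcgr2b, -0.43 to 1.51 for Fcgr3, 0.66 to 1.20 for Fcgr4, -0.21 to 1.09 for Fcer1g and -0.30 to 0.19 for Fcgrt. Fcgr3 reversed without Mettl3WT replicate 1 and without Mettl3KO replicate 2, Fcer1g without Mettl3KO replicate 2 and Fcgrt without Mettl3WT replicate 2. These fits compare libraries across pairs, and the cause was not tested. Without the pair as a block the log2 changes were by construction the same (1.10 for Fcgr1, 1.01 for Fcgr2b, 0.54 for Fcgr3, 0.93 for Fcgr4, 0.44 for Fcer1g and -0.05 for Fcgrt), and no member passed the adjusted threshold. The count of members higher at an unadjusted p under 0.05 was 4, and it was 2 without the block and 0 to 2 with a library left out. The smallest adjusted p of a member over all alternatives was 0.0645 in limma, for Fcgr1 among protein-coding genes alone.

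The count of all genes called by limma was 5, and it was 0 without the replicate block (78 at an unadjusted p under 0.05), 1 with a pseudocount of 0.1, 1 with the ratios of each pair centred on their median, 42 among protein-coding genes alone, and 1 to 118 with a library left out (1 without Mettl3WT replicate 2, 3 without Mettl3WT replicate 1, 27 without Mettl3KO replicate 2, 118 without Mettl3KO replicate 1). The count past 1.5-fold in both pairs was 142, and it was 251 with a pseudocount of 0.1 and 79 among protein-coding genes alone, with 3 members past it each time. The activating to inhibitory ratio of Mettl3KO over Mettl3WT in pair 1 was 1.21 and was 1.87 with Fcgr1 alone, 1.54 with Fcgr4 alone and 1.03 without Fcgr1. The values rest on 2 pairs, and genes at or below 1 RPKM in pair 2 are not analysed here.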
